A study of Saccharomyces cerevisiae with 2 samples.

Results

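Narrow DRIP-seq peaks lying wholly inside 1 protein-coding gene were described in budding yeast. DRIP-seq maps RNA:DNA hybrids by immunoprecipitating genomic DNA with the S9.6 antibody. A peak was taken as a member when it was nuclear, narrower than 500 bp, wholly inside 1 protein-coding gene and free of any base of another gene. Genes over 4500 bp whose symbol equals the locus tag, which include long frames of Ty retrotransposons, were left out. YIL082W-A, an unnamed ORF of 4498 bp just under that limit, stayed in with 1 member (score 14). The rule left 635 of the 1687 nuclear peaks, in 583 genes, out of 1723 peaks in all. Members were thus chosen by the measured positions and widths of the peaks, so every value below is a description of 1 library and no test was made.

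The series holds 1 S9.6 immunoprecipitate and 1 input of Saccharomyces cerevisiae strain WRBb-9D, grown in YPAD medium at 30 °C to mid-log phase and not synchronised. Only the immunoprecipitate has values here. Both came from the same background, which is MATa with the alleles trp1-1 and ade2-1 and a mutant LEU2 gene. It also carries his3-11,15, bar1-delta, a tagged helicase gene written RRM3::FLAG::KAN, can1-100 and the construct ura3::URA3/GPD-Tk(7x). There is no replicate, no other strain or condition to compare with and no RNase H control among the values, and the depth of the library is unknown.

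An R loop is an RNA:DNA hybrid together with the DNA strand it displaces. Hybrids form mainly behind an elongating RNA polymerase, when the new transcript pairs back with its template, and they are removed by RNases H and by helicases such as Sen1. Packaging of the transcript by the THO complex limits them. The series title names Yra1, an mRNA export adaptor. A hybrid inside a gene body can in principle form anywhere along the transcribed unit, and the peaks carry no strand, so they do not say which strand held the RNA.

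The selection ran from 1266 narrow nuclear peaks. Of these, 635 were members, which is 50.2% of the narrow peaks. A further 334 crossed an edge of 1 protein-coding gene, 223 touched no gene, 43 touched several genes, 18 touched only a noncoding gene or pseudogene, and 13 lay inside an unnamed ORF over the length limit. Of the edge-crossing peaks, 161 lay over the gene start and 172 over the gene end, while 1 spanned a whole gene. The members ranged from 200 to 475 bp in width, with a median of 250 bp and a middle range from 200 to 325 bp. Widths came in steps of 25 bp, and 180 members had the smallest width of 200 bp. At the width limit, the 21 members of 475 bp had scores from 15 to 54 (median 26), and the 12 peaks of 500 bp that met every other criterion had scores from 15 to 61 (median 21.5).

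The score is a value the authors gave each peak, on a scale that no source used here states, and it serves below to order peaks within the list. Members scored from 13 to 54, with a median of 18. The other 631 narrow nuclear peaks had a median of 23 and a highest score of 141, and the 421 wider nuclear peaks had a median of 43 and a highest score of 679. The members thus had the lowest median of these groups, as the plot of scores shows, but the ranges overlapped: 29.1% of members scored 26 or more. A few values recurred: 249 members scored 15, 77 scored 26 and 67 scored 32, which together made up 61.9% of the members. The rank order among most members is therefore a tie.

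**Figure D1:**
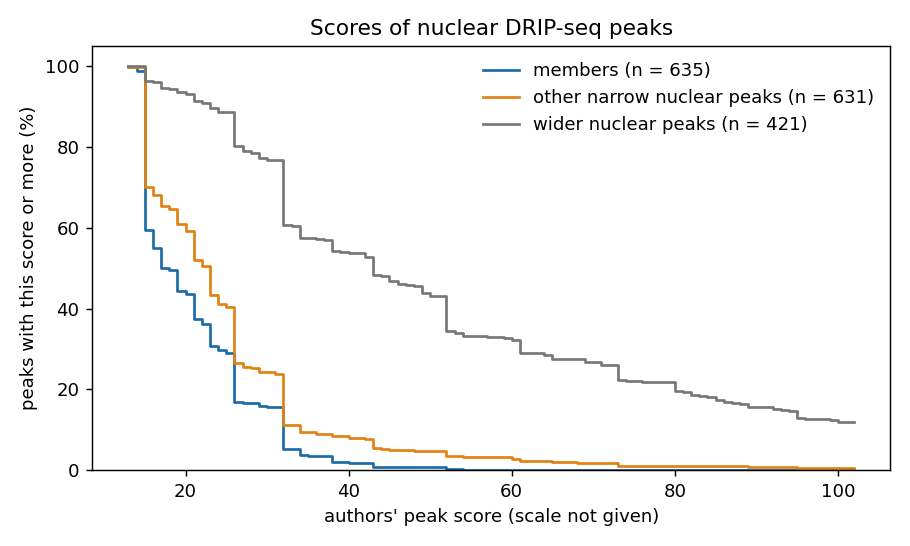
Share of peaks (%) with at least the score on the horizontal axis, for the 635 members, the 631 other narrow nuclear peaks and the 421 wider nuclear peaks. The curve of the members lies lowest and ends at 54, while the wider peaks run on beyond the range drawn, to 679.

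The members of highest score lay in genes of unlike roles. GPI14, which encodes a mannosyltransferase of glycosylphosphatidylinositol anchor synthesis, held a peak with a score of 54 (chromosome X, 460576 to 461050) that took up 39.2% of the gene. REA1, the midasin ATPase of large ribosomal subunit assembly, held another with a score of 54 (chromosome XII, 351576 to 351775) and a second with 52. The remaining peaks with a score of 52 lay in ERF2, a subunit of the palmitoyltransferase that acts on Ras proteins (chromosome XII, 627826 to 628150), and in YLR278C, an ORF with no gene name here (chromosome XII, 700376 to 700675). Thus 4 of the 5 highest members were on chromosome XII, counting both of these peaks of REA1. Of all 635 members, 75 lay on that chromosome.

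The members with a score of 43 were 6 single peaks. NTG1, a DNA glycosylase of base excision repair, held one (chromosome I, 126976 to 127325), and SAS3, a histone acetyltransferase, another (chromosome II, 119851 to 120175). COG3 encodes a subunit of the Golgi tethering complex (chromosome V, 485576 to 485925), and YEF3 encodes the fungal translation elongation factor eEF3 (chromosome XII, 637851 to 638150). MNN4 acts in mannosylphosphate addition to glycans (chromosome XI, 64651 to 64950), and ATO3 is a putative ammonium exporter (chromosome IV, 1241376 to 1241575). CLU1, needed for normal mitochondrial distribution, followed with a score of 42, and TIM44 of the mitochondrial import motor with 40. A score of 38 was shared by 9 members, among them peaks in FIG2 and in CAJ1, which encodes a J-domain cochaperone; these are named ahead of the others of that score only by their chromosome order. YEF3 has a close paralog, so its value is uncertain where reads could be shared.

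Summits lay along the whole gene body. The median summit stood at 51.8% of the way from gene start to gene end (exact 95% interval of the median 48.02 to 54.96), with a middle range from 32.0 to 73.5%. Here and below, intervals are exact binomial ones and cover counting error only. A peak inside a gene cannot have its summit at the very edge, so the positions that a window of the same width and summit offset could take in the same gene were counted as the background. The mean summit position was 52.0%, against 50.0% over those open positions.

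By decile of gene length, the interval of the members held the share of open positions in every single decile. Away from the edges, decile 3 held 9.76% (7.57 to 12.3) against 11.6%. The first decile held 20 members, or 3.15% (interval 1.93 to 4.82), where 4.74% of the open positions fell, just inside the interval. The last 2 deciles together held 116 members, or 18.3% (15.3 to 21.5), against 14.8% of the open positions. These 116 lay in 113 genes, and 4 of them in REA1; without REA1 the share was 17.8% (14.9 to 21.02), against 14.8%. The intervals treat each peak as independent, which peaks of 1 gene are not, and the open share lies just below their lower edge. The last 2 deciles were put together only after seeing the data. The first 2 deciles together held 86, or 13.5% (11.0 to 16.5), against 14.5%. In absolute distance, 27 summits lay within 200 bp of the gene start, where the open positions gave 37.2, and 47 within 200 bp of the gene end, where they gave 38.0. The interval of the share near the end, 5.49 to 9.72%, held the open share of 5.98%, and so did that near the start, 2.82 to 6.13% against 5.86%.

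**Figure D2:**
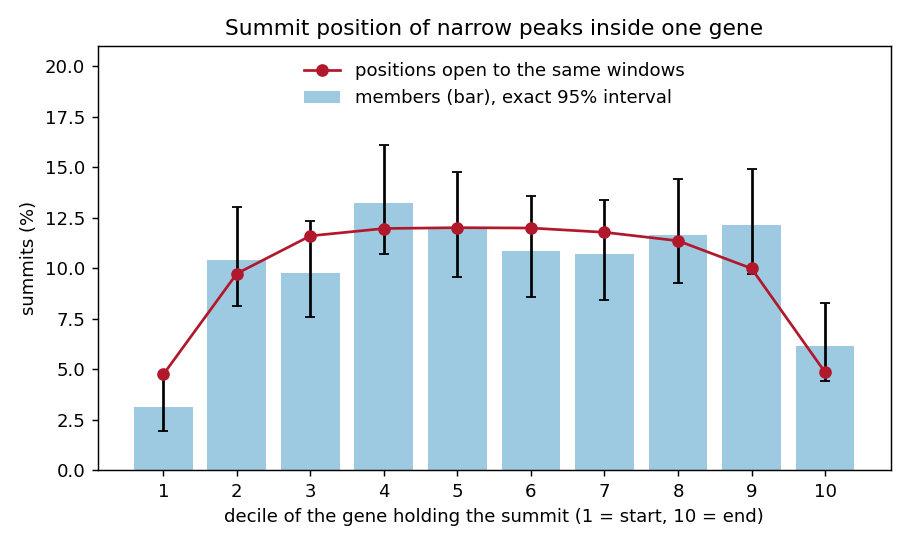
Share of the 635 member summits (%, bars with exact 95% intervals) in each decile of the gene from start to end, beside the share of positions open to the same windows (line). Every interval holds the open share. The values are 3.15% against 4.74% in the first decile, 9.76% against 11.6% in decile 3 and 6.14% against 4.85% in the last.

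The deposited summits were not central in their peaks. On genes of both strands the median summit stood 38.7% of the peak width from the end with the lower coordinate, so this offset follows the chromosome and not the gene. On the 311 members in Watson-strand genes, where that end faces the gene start, the median position was 49.4%, and on the 324 in Crick-strand genes it was 53.4%. With peak midpoints in place of summits the values were 51.3% and 53.6%.

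Position varied little with gene length except in the longest genes. The median position was 53.5% in genes under 1000 bp (74 members), 52.0% at 1000 to 1999 bp (248), 51.2% at 2000 to 2999 bp (145) and 46.5% at 3000 to 4499 bp (107). In genes of 4500 bp or more it was 63.0% (61 members, interval 48.9 to 69.9). Without REA1, whose 6 peaks all lay late in the gene, that value was 56.7% (55 members, 43.7 to 68.9). Members scoring 18 or more had a median position of 54.8% (49.3 to 59.3) and those scoring less 49.5% (44.9 to 53.4), intervals that overlap.

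The neighbouring genes were arranged much as for other genes. Among genes holding a member, the next protein-coding gene beyond the end was convergent for 51.1% (interval 46.97 to 55.3), against 51.9% of all eligible genes. For the 116 members in the last 2 deciles the value was 49.1% (39.7 to 58.6). For the 86 members in the first 2 deciles, the next gene before the start was divergent in 40.7% (30.2 to 51.8), against 51.8% of all eligible genes, a value within the interval.

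Genes holding a member were long. An eligible gene is a nuclear protein-coding gene outside the unnamed long ORFs with at least 200 bp that no other gene shares, and there were 5728 of them. Of these, 583 held at least 1 member, which is 10.2%, and 46 held 2 or more, which is 0.803%. The median length of the genes holding a member was 1908 bp (interval 1812 to 2022), against 1218 bp for all eligible genes. The share holding a member went from 3.32% of genes under 1000 bp to 10.6% at 1000 to 1999 bp, 16.6% at 2000 to 2999 bp, 26.5% at 3000 to 4499 bp and 37.1% of genes of 4500 bp or more.

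A long gene has more room, and the density over that room was nearly level. Counted over the positions at which a window of 250 bp, the median width, fits in the unshared part of a gene, there were 8.98 members per 100 kb over all eligible genes. The density was 8.71 under 1000 bp, 9.43 at 1000 to 1999 bp, 8.45 at 2000 to 2999 bp, 9.03 at 3000 to 4499 bp and 8.82 at 4500 bp or more. Without REA1 the last value was 8.13. The 537 eligible ORFs without a gene name held 28 members in 27 genes (5.03%), with a density of 7.68.

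**Figure D3:**
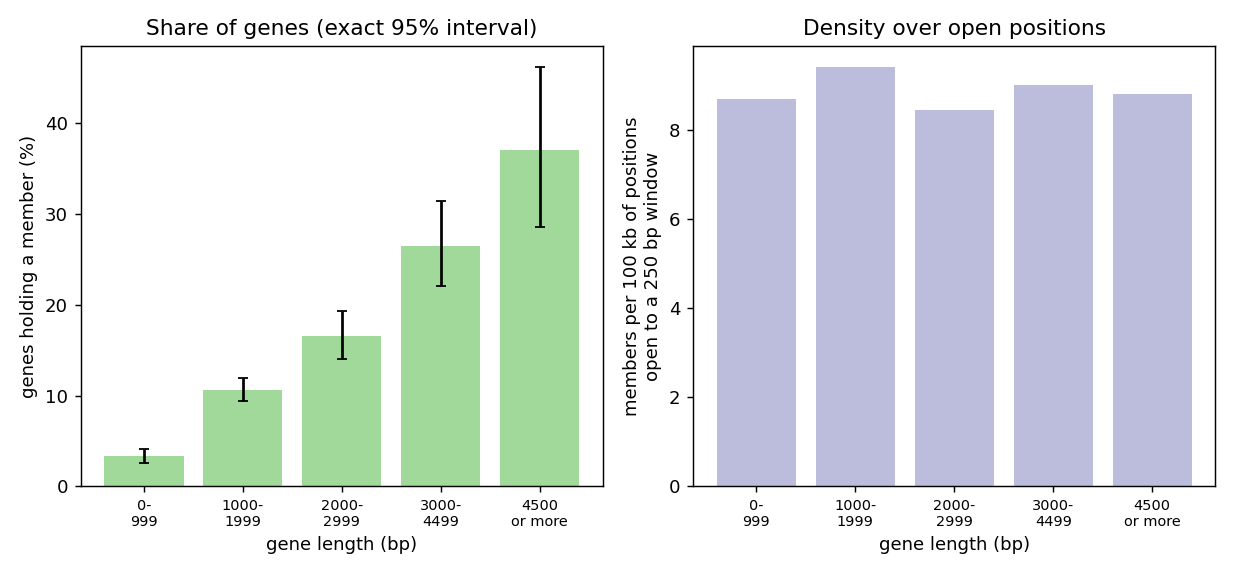
Left, share of eligible genes holding a member (%, bars with exact 95% intervals) by gene length in bp. Right, members per 100 kb of positions open to a 250 bp window in the same length classes. The share climbs from 3.32% to 37.1% while the density stays between 8.45 and 9.43.

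The shortest and longest genes show the range. The shortest holding a member was SRX1, which encodes sulfiredoxin (384 bp), where a peak of 200 bp with a score of 15 took up 52.1% of the gene. RDL1, a thiosulfate sulfurtransferase gene of 420 bp, held a peak with a score of 23, and MRPL44, a mitochondrial ribosomal protein gene of 444 bp, one with a score of 26. At the other end stood REA1 (14733 bp, 6 members), TRA1, a scaffold of the SAGA and NuA4 acetyltransferases (11235 bp, 1 member), and TOM1, a ubiquitin ligase (9807 bp, 2 members). DYN1, the dynein heavy chain and the second longest eligible gene (12279 bp), and NUM1, its cortical anchor (8247 bp), were touched by no peak of any width. Of the 10 longest eligible genes, 8 held a member, and of the 20 longest, 13. No share expected from the room in such long genes is given beside these counts. Among the 20 longest, FMP27, HOB2, PRP8, TAO3 and MEC1 were also touched by no peak. DYN1 and NUM1 were singled out after their values were seen.

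REA1 held the most members of any gene, and they all lay towards its end. Its gene runs from 349006 to 363738 on chromosome XII, on the Crick strand, so transcription proceeds towards lower coordinates. Along it the 6 peaks had summits at 63.0, 71.1, 81.7, 85.5, 89.9 and 96.6% of the gene. Their scores in that order were 15, 20, 54, 38, 25 and 52. The peak nearest the end lay at 349051 to 349525 and the one farthest from it at 354451 to 354650, and the first 9088 bp of the gene held none. The 6 peaks took up 12.7% of the gene, and neighbouring summits stood 563 to 1562 bp apart. No wider peak touched REA1.

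FIG2 and INO80 held 3 members each. FIG2, a cell wall adhesin of mating cells (chromosome III, 267434 to 272263), had summits at 55.0, 68.9 and 89.1% of its length, with scores of 38, 32 and 23, so its first part was free of peaks. INO80, the ATPase of a chromatin remodelling complex (chromosome VII, 221104 to 225573), had them at 17.01, 43.3 and 72.1%, with scores of 20, 15 and 15. FIG2 carries internal repeats, so its values are uncertain where reads could match more than 1 place.

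In 43 genes there were 2 members. Their summits stood from 387 to 4100 bp apart, with a median of 875 bp, and 25 of the 43 pairs were closer than 1000 bp. The shortest spacing was in YSC84, an actin-binding protein gene, and the longest in GCN1, the positive regulator of the Gcn2 kinase. Genes with several members had a median length of 2915 bp, and the shortest, CDC43 (1131 bp), encodes a subunit of a protein prenyltransferase. KRE33, an RNA cytidine acetyltransferase of 18S rRNA, had its pair near the start, at 4.48 and 17.9% of the gene, with scores of 21 and 34. LEU1, the isopropylmalate isomerase of leucine synthesis, had one near each edge, at 12.4 and 82.9%, both with a score of 32. TAF2, a subunit of the general factor TFIID, had them at 20.9 and 70.9%, with scores of 34 and 17. FAB1, the kinase making phosphatidylinositol 3,5-bisphosphate, had them at 29.1 and 43.7%, with scores of 32 and 19. Peaks of 1 gene share their source and do not count as repeats of one another.

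**Figure D4:**
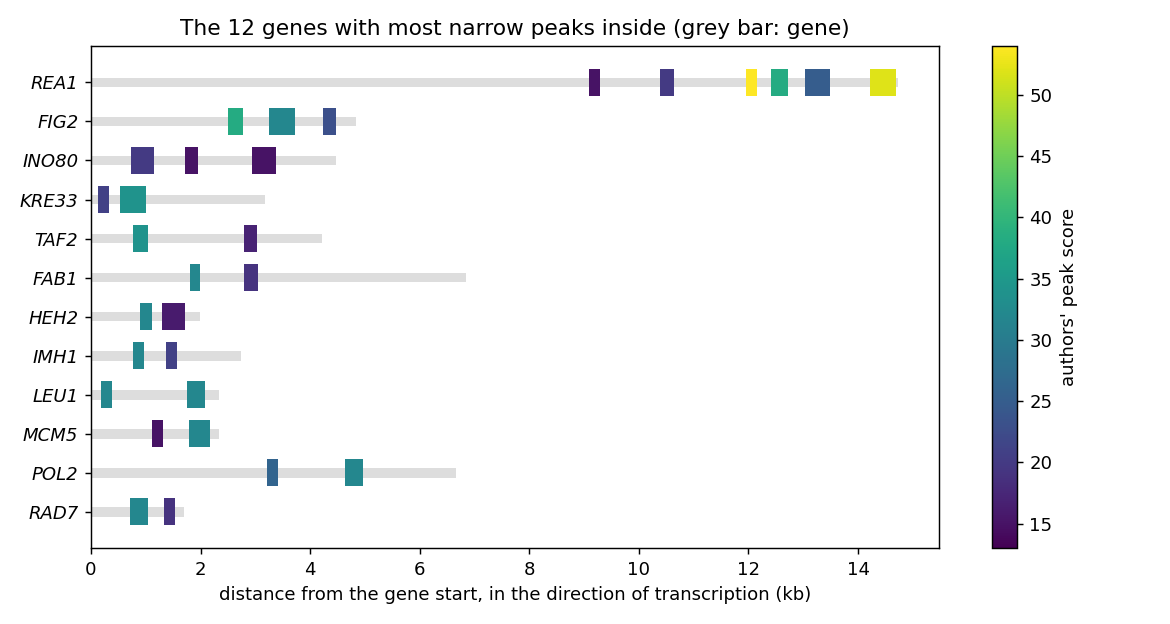
Positions of the member peaks (coloured by the authors' score) along 12 genes with several members, as distance in kb from the gene start in the direction of transcription. Grey bars are the genes. Drawn are the genes with 3 or more members and, among the 43 tied at 2, those of highest score, with ties ordered by symbol. The 6 peaks of REA1 lie in its last part, while those of INO80 spread over the gene and those of KRE33 lie near its start.

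Most genes with a member had no other peak. In 90 of the 583 genes, or 15.4%, a further peak that is not a member also touched the gene, and the members took up a median of 14.9% of their gene. The nearest other peak of any kind stood a median of 1901 bp away, against 1326 bp for the other narrow peaks and 451 bp for the wider ones. A tRNA gene lay within 1 kb of 35 members (5.51%, interval 3.87 to 7.58), against 2.42% of the positions in eligible genes open to a 250 bp window. The shares among the other narrow peaks, 20.9%, and the wider ones, 32.3%, are no fair measure, since the rule bars members from sharing a base with a tRNA gene. No member lay within 1 kb of an unnamed ORF over 4500 bp, where 0.119% of the open positions fell. In the outer 30 kb of chromosomes lay 25 members (3.94%, 2.56 to 5.76), against 5.65% of the open positions. By chromosome, the density over open positions ran from 6.15 per 100 kb on chromosome XVI (34 members) to 13.5 on chromosome I (16 members), with 11.6 on chromosome XII (75 members) and 10.9 there without REA1.

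Functions were described with 21 lists of genes by textbook role, which hold 2004 of the eligible genes. For each list the share of genes holding a member was set beside the 10.2% of all eligible genes. It was also set beside the share at the same gene lengths, which is the mean, over the list's genes, of the share among all eligible genes in the same of 20 length bins. The interval lay above 10.2% for 5 lists and below it for 2. Against the share at the same lengths, no list had an interval above and 1, the cytoskeleton, had one below, as the plot of lists shows. Nothing is called particular to a list from these shares.

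Genes of DNA replication, recombination and repair held 42 members in 33 of 151 genes, or 21.9% (interval 15.5 to 29.3), against 15.7% at the same lengths. Their density over open positions was 14.4 per 100 kb, beside 8.98 for all eligible genes. ORC1, the largest subunit of the origin recognition complex, held a peak with a score of 38 (chromosome XIII, 142801 to 143075), and MSH6, a mismatch recognition protein, one with 34. Of the helicase that unwinds DNA at forks, MCM3 had summits at 15.5 and 95.2% of the gene (scores 26 and 15) and MCM5 at 48.7 and 77.7% (scores 15 and 32). POL2, the catalytic subunit of DNA polymerase epsilon, had them at 49.5 and 72.4% (scores 26 and 32). The ring proteins of cohesin, SMC1 and SMC3, each held 2 members, with scores of 15 and 32 in SMC1 and a score of 15 for both in SMC3. The cohesin loader SCC2 and the condensin subunit BRN1 held 2 each as well. Among members scoring 18 or more, 13.9% of the list held one, against 5.22% of all eligible genes, a share not matched for gene length. Other lists also stood above 5.22% at that score, such as ribosome biogenesis at 14.04% and genes known for internal tandem repeats at 13.2%. Some stood below it, such as the cytoskeleton at 3.57%.

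Ribosome biogenesis genes held 30 members in 22 of 114 genes, or 19.3% (12.5 to 27.7), against 13.2% at the same lengths. Their density was 15.5 per 100 kb, and 13.4 without REA1. UTP10, a large scaffold of the small subunit processome, held a peak with a score of 38 (chromosome X, 212751 to 213175). RRP5, needed for both ribosomal subunits, held 2, at 66.7 and 87.9% of the gene, each with a score of 32. Cytoplasmic ribosomal protein genes, which are short, held a member in 6 of 133, or 4.51% (1.67 to 9.56), against 4.83% at the same lengths, and their density of 8.79 was near that of all genes. RPL15A scored 18, the median of the members, and RPL43B, RPP1B, RPS10B, RPS18B and RPS7B had 15 each. Many of these genes have near-identical copies, so which copy a read came from is uncertain. Mitochondrial ribosomal protein genes, also short, held one in 4 of 69 (5.80%, 1.60 to 14.2), against 3.97% at the same lengths. Their density was 13.3 per 100 kb, and the highest score, 30, was in MRPL10.

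Translation factors and aminoacyl-tRNA synthetases held a member in 9 of 61 genes (14.8%, 6.98 to 26.2), against 12.9% at the same lengths. After YEF3 came EFT1 and EFT2, a pair of near-identical genes for the elongation factor eEF2. Their peaks scored 25 and 26 and lay at different places, 63.9 and 91.3% of the gene. Sequence this alike may let a read match both copies, and the handling of such reads is not known. The same limit applies below to SSA1 and ADH2, which have close relatives in the genome. Chaperones held one in 7 of 46 (15.2%, against 11.3% at the same lengths), among them SSA1, a cytosolic Hsp70, with a score of 18. In glycolysis and fermentation 3 of 26 genes held one (11.5%, 2.45 to 30.2, against 10.005% at the same lengths), all in the last part of the gene: PGK1, phosphoglycerate kinase, at 79.4% with a score of 35, ADH2, the alcohol dehydrogenase of ethanol use, at 75.1% with 32, and TPI1, triosephosphate isomerase, at 91.7% with 26. This share turned with the rule: it was 7.69% with peaks under 400 bp, against 9.22% of all eligible genes, and 19.2% both with peaks under 600 bp and with the summit alone required inside, against 10.6 and 12.97%. Amino acid biosynthesis genes held one in 9 of 83 (10.8%, against 11.3% at the same lengths), led by CPA1, of carbamoyl phosphate synthesis, and LEU1, both with scores of 32.

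Signalling genes, a list of kinases and phosphatases that also takes in regulators such as IRA1, IRA2 and the adenylate cyclase CYR1, held a member in 23 of 102 genes, or 22.5% (14.9 to 31.9), against 16.4% at the same lengths. With a score of 18 or more the share was 4.90%, against 5.22% of all eligible genes, again not matched for gene length. The highest were CDC28, the cyclin-dependent kinase of the cell cycle, with 34, and IRA2, a GTPase-activating protein of Ras, with 32. Its paralog IRA1 held one with 17, and in both the summit lay early, at 9.67% and 14.4% of the gene. Membrane transporters held one in 17 of 95 (17.9%, 10.8 to 27.1), against 15.9% at the same lengths. Among them were HXT2 and HXT4, hexose transporters, with scores of 38 and 32, and all the ammonium permeases, MEP1, MEP2 and MEP3, with scores of 36, 22 and 32. The hexose transporters are alike in sequence, and reads may not tell them apart.

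Genes known for internal tandem repeats held 16 members in 13 of 53 (24.5%, 13.8 to 38.3), against 19.3% at the same lengths. Cell wall and surface glycoprotein genes, which share members with that list, held 14 in 11 of 71 (15.5%, 7.996 to 26.03), against 12.8% at the same lengths. Without the outer 30 kb of chromosomes the shares were 19.6% and 11.1%, within those intervals, against 10.4% of all eligible genes. Beside FIG2 and MNN4 the genes of these lists included HKR1, an osmosensor of the HOG pathway, at 14.3 and 47.5% of the gene with scores of 22 and 16, and HPF1, a haze-protective mannoprotein, with 26. Reads from repeats may match several places, and no source used here says how such reads were treated.

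Genes of mitochondrial respiration and the citric acid cycle held a member in 2 of 92, or 2.17% (0.264 to 7.63), against 6.91% at the same lengths. These were ATP1, the alpha subunit of ATP synthase, with 2 peaks, and ATP22, needed for translation of a mitochondrial ATP synthase mRNA, all with a score of 15. With a score of 18 or more, the list held none. Genes of the cytoskeleton, motors, polarity and septins held one in 9 of 112, or 8.04% (3.74 to 14.7), against 15.6% at the same lengths, and their density was 4.002 per 100 kb. The highest there were BUD9, a landmark of bud site selection, with 29, and BNI1, a formin, with 26.

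For the remaining lists the share at the same lengths lay within the interval, but the proteasome and lipid lists stood about as far below it in ratio as the replication and biogenesis lists stood above. Transcription and chromatin genes held a member in 22 of 161 (13.7%, against 14.9% at the same lengths), led by SAS3 and TAF2. Sequence-specific transcription factors held one in 17 of 142 (11.97%, against 12.8%), with HMS1 and PDR3, the latter a regulator of drug resistance, at 32. The secretory pathway held one in 25 of 222 (11.3%, against 12.2%), led by COG3 and MNN4. Nuclear pore, transport and mRNA export genes held one in 11 of 68 (16.2%, against 18.7%), with GLE2, a pore-associated export factor, and MSN5, an exportin, at 32 and with THO2, a subunit of the THO complex, at 15. YRA1 held none. The proteasome and ubiquitin list held one in 10 of 110 (9.09%, 4.45 to 16.1, against 12.8%), with RPT2, an ATPase of the proteasome cap, at 32. Lipid metabolism genes held one in 7 of 76 (9.21%, 3.78 to 18.1, against 13.7%), led by FAB1. Meiosis and sporulation genes held one in 9 of 73 (12.3%, against 10.2%), led by REC107, which acts in meiotic double-strand break formation, at 25. These 9 include MCD4, which acts in glycosylphosphatidylinositol anchor synthesis, so its place in that list is doubtful.

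**Figure D5:**
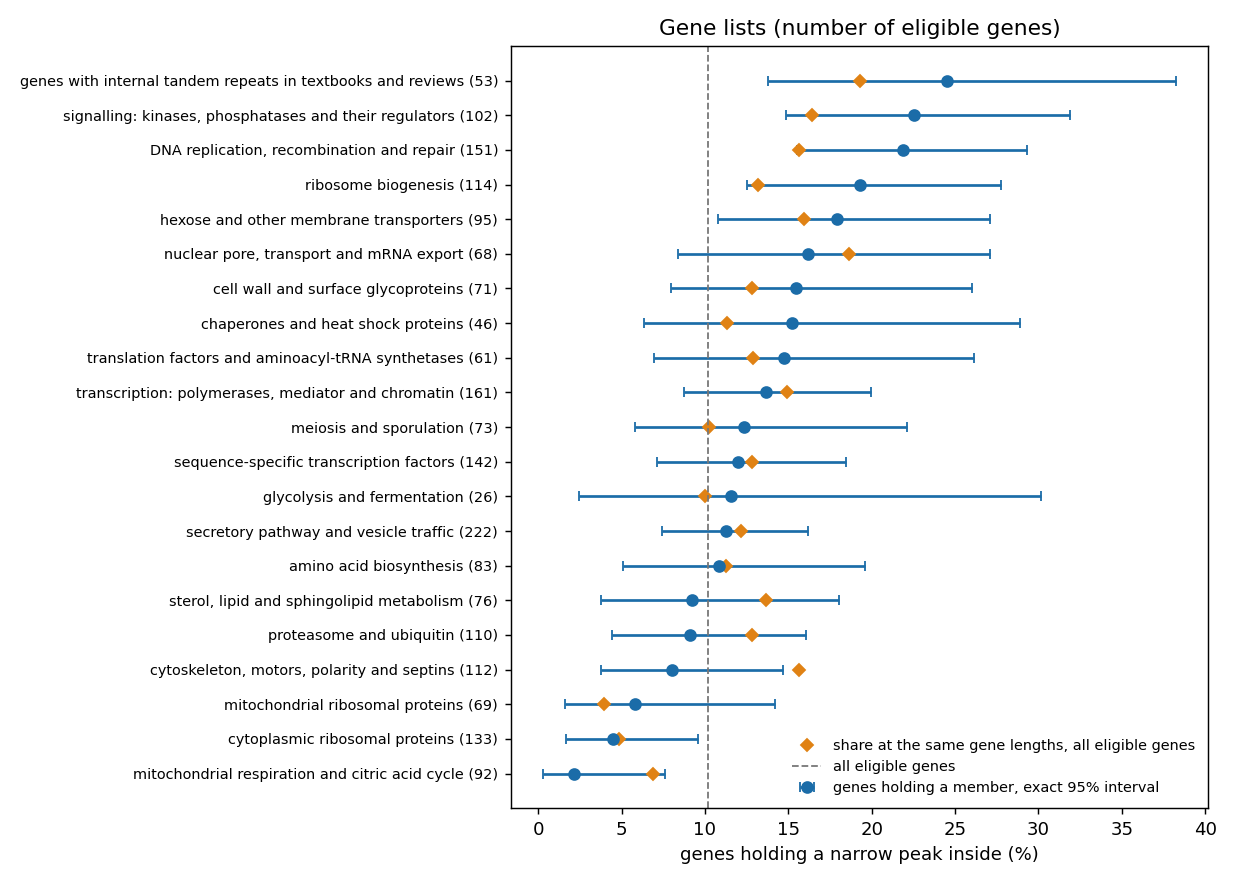
Share of eligible genes holding a member (%, points with exact 95% intervals) in each of 21 gene lists, with the number of eligible genes in brackets. Diamonds give the share of all eligible genes at the same gene lengths and the dashed line that of all eligible genes, 10.2%; the cytoskeleton list, at 8.04%, has its diamond outside the interval, at 15.6%.

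Of 12 genes of the genotype, the title and common reference loci, 2 held a member. LEU2, mutated in this strain, held a peak with a score of 24 (chromosome III, 91801 to 92050), at 63.0% of the gene. CAN1, the arginine permease mutated as can1-100, held one with a score of 15 (chromosome V, 32026 to 32275), at 76.4%. YRA1, RRM3, TDH3, URA3, PMA1 and ACT1 were touched only by peaks that failed the rule, and ADE2, HIS3 and TRP1 by no peak. The peak in YRA1 (chromosome IV, 1236776 to 1237275, score 26) lay wholly inside the gene. It was 500 bp wide, just at the limit that members had to stay under. BAR1, labelled as deleted, shared only its last 5 bp with a peak that ran on beyond the gene end (chromosome IX, 324101 to 324575), and no label says how far the deletion reaches.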

How the data were processed

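The deposited peak list of the S9.6 immunoprecipitate was used, and no values of the input were. The build was sacCer3 and the tools named are MACS2 2.1.1.20160309 and SAMtools 1.7, per the submitters' processing notes. Not given in the sources used here are the aligner, the threshold for a peak, the handling of reads that match several places and the part the input played. The deposited score is a whole number per peak and the deposited summit is an offset in bp. The other 3 value columns hold 0 throughout and were not used. DNA was cut with restriction enzymes and amplified before sequencing, per the labels' protocols, which limits how finely a peak can be placed. Fragments were about 200 bp, and read counts are unknown.

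Genes came from the RefSeq table of R64, with strands from systematic names; gene lengths include any intron. Coordinates are 1-based. Of the names in the gene lists, 6 matched no gene. Members and lists were chosen with earlier results of these data known. Genes named in the text are the 15 members of highest score, genes with 3 or more members, the 3 longest and 3 shortest genes, the top of each list and 12 fixed genes; others were chosen after their values were seen. Intervals are exact (Clopper-Pearson) at 95%. Peak sequences and encoded residues were not analysed here. Python 3.11.15, pandas 2.3.3 and SciPy 1.17.1 were used. The code was tested on simulated data: all 600 planted peaks were placed in the right gene and position, and 0 of 600 across an edge were called members. The inside peaks were planted only towards the end of long unshared stretches, with positions worked out by the same formula. Those across an edge lay only at the edge with the lower coordinate. Short genes and the other edge were thus not tried.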

Additional observations from a re-analysis of the deposited data

How the results depend on the processing

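No paired analysis was possible because only 1 library has values and no result comes from a test. Of 76 values of the main results recomputed under other settings, 68 stayed within the interval of the value reported, or within 1.5 times of a count. With only members scoring 18 or more there were 318 members, 15 genes with several members and 5.22% of eligible genes holding one, since this setting keeps fewer peaks. With the summit alone required to lie in a single gene, 12.97% of eligible genes held a member, their median length was 1752 bp and 37.2% of summits lay in the third nearest the gene end, against 33.2% of them with the whole peak. In the last 2 deciles, recomputed only after seeing the data, lay 24.7% and 18.3%. With the summit alone required inside, summits can also lie nearer the gene edges. The share of open positions was not recomputed for that rule, so neither rise measures placement towards the gene end. With a width under 400 bp, 9.22% of eligible genes held a member. Of 189 values for gene lists, 12 moved, all under the score setting. Leaving out REA1, or peaks within 1 kb of a tRNA gene, were alternatives also chosen after seeing the data. The planned comparison of encoded residues was not run. With 1 library and unknown depth, no value has a replicate check.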
